A study of Mus musculus with 3 samples.

Results

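Ephs, ephrins, Slits, Robos, netrins and their receptors are the ligands and receptors by which growing axons are turned away from, or drawn towards, their targets. The genes were taken from the deposited expression table by their symbols (Eph receptors A and B, ephrins A and B, Slit1 to Slit3, Robo1 to Robo4, netrins, netrin-Gs, the Unc5 receptors, Dcc and Neo1). The symbol rule used no values, but the genes were chosen with earlier results of these data known. The symbols matched 41 of the 34617 gene rows. The table compares 2 RNA libraries, each from sorted cells of the main olfactory epithelium of mice aged 4 weeks. The O/Tet3 library came from strain FVB mice carrying OMP-tTA and tetO-Tet3-GFP, in which the tTA activator, labelled as driven from the olfactory marker protein gene Omp, switches on a transgene of Tet3, which turns 5-methylcytosine in DNA into 5-hydroxymethylcytosine. The mOSN library (mature olfactory sensory neurons) came from strain C57BL/6J cells positive for EGFP from an OMP-ires-EGFP allele. Genotype, strain and library therefore differ together, the number of mice per library is not given in the labels, and the driver limits the transgene to cells that use Omp. The third sample, DNA of O/Tet3 mice immunoprecipitated for 5-hydroxymethylcytosine, was not analysed here.

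Olfactory sensory neurons send their axons to the olfactory bulb throughout life, and axons of neurons that express the same odorant receptor converge on the same glomeruli. Ephrin-As and EphA receptors on these axons take part in local sorting, and EphA5 and ephrin-A5 are known from mouse as a pair whose levels differ between neurons with different receptors. Robo2 on the axon and Slit1 as its repellent ligand take part in placing axons along the dorsal to ventral axis of the bulb. Netrins act through Dcc and neogenin as attractants and through Unc5 receptors as repellents.

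Values are those of the deposited table after its log2(value + 1) scale was undone. They have the number format of FPKM, a length-normalised unit, although the table does not name it. Genes with a value of 1 or more in at least 1 library were compared. The log2 ratio is the log2(value + 1) of O/Tet3 minus that of mOSN, and a ratio of 1 or more in size, that is 2-fold in value + 1, made a gene higher or lower. With 1 library per group, no difference below has a replicate check or a test. The Tet3 value was 145 in O/Tet3 and 3.72 in mOSN, 39.1-fold higher, in the direction of the labels. The table gives no read counts, and a read counted for 1.89 times as much value in O/Tet3, where the same value therefore stands on fewer reads. All 8 mature olfactory neuron markers examined were at least 2-fold lower in O/Tet3 (summed value 686 in O/Tet3 and 3012 in mOSN). Among the 6 markers of immature neurons, 2 were higher and none was lower (summed value 149 in O/Tet3 and 144 in mOSN). In bulk RNA, fewer cells of a type and less RNA per cell cannot be told apart, and the part of such a shift in the values below was not tested.

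A small set of these genes reached a value of 1, with Robo2, Efna3 and Epha5 leading in mOSN and Epha7, Robo2 and Epha5 in O/Tet3. In all, 10 of the 41 genes (24.4%) reached a value of 1, against 37.4% of all gene rows. They were the EphA receptors Epha5 and Epha7, the ephrin-As Efna3 and Efna5, the ligands Slit1 and Slit2, the receptors Robo1 and Robo2, the netrin receptor Unc5b and neogenin (Neo1). 9 of them reached 1 in both libraries, and Slit2 did so in mOSN alone. Of the 10, 1 was at least 2-fold higher in O/Tet3 (Epha7) and 2 at least 2-fold lower (Efna3 and Robo2), while among all 12943 compared rows 16.5% were higher and 12.0% lower. In either direction this was 3 of 10 genes (30%), near the 28.5% of all compared rows. The log2 ratio was below 0 in 8 of the 10, against 39.5% of all compared rows. The median log2 ratio of the 10 was −0.72, against 0.21 over all compared rows. Restricted to rows of at least 1 in both libraries, it was −0.71 for the 9 genes and 0.21 for all 9934 such rows.

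**Figure D1:**
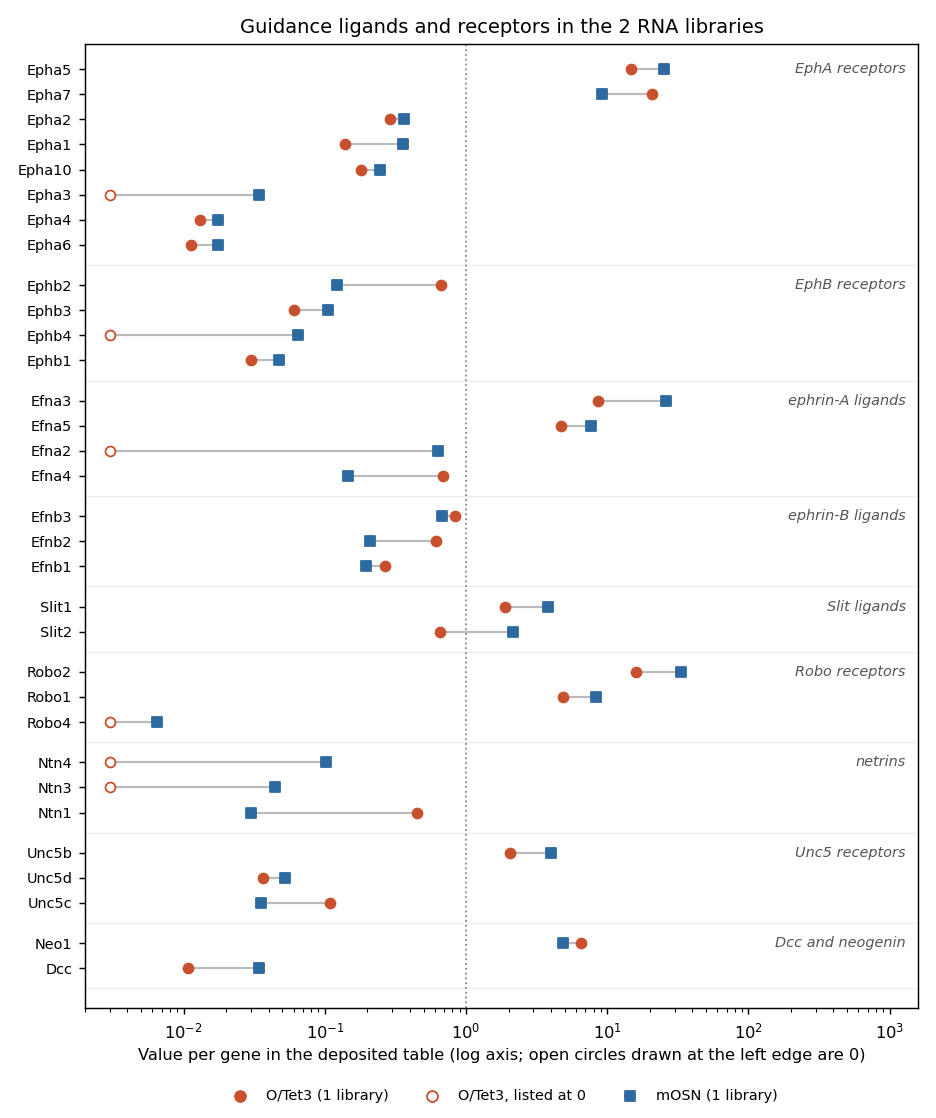
Values of the 32 guidance genes above 0 in at least 1 library (horizontal log axis, value per gene; O/Tet3 as circles, mOSN as squares, 1 library each), grouped by family and ordered by the mOSN value. Open circles at the left edge are listed at 0 and the dotted line is the minimum of 1: Epha7 is the only EphA gene of that level drawn further right in O/Tet3 than in mOSN, while Efna3, Efna5, Robo1, Robo2, Slit1, Slit2 and Unc5b are further left.

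The EphA receptors, which bind the ephrin-As tethered to neighbouring membranes, had a different order in each library. Epha7 had a value of 20.8 in O/Tet3 and 9.25 in mOSN, 2.25-fold higher (log2 ratio 1.09). Epha5, the receptor paired with ephrin-A5 in olfactory axon sorting, had a value of 14.8 in O/Tet3 and 25.1 in mOSN, 1.70-fold lower (log2 ratio −0.73). Epha7 thus held 57.4% of the summed EphA value in O/Tet3 and 26.1% in mOSN, and Epha5 40.8% in O/Tet3 and 70.9% in mOSN. The sum itself was nearly equal, at 36.2 in O/Tet3 and 35.4 in mOSN. The ratio of Epha7 to Epha5 was 1.41 in O/Tet3 and 0.368 in mOSN, a 3.82-fold difference that no scaling of one library against the other can alter. By rank among all rows, Epha7 stood at 1730 in O/Tet3 and 3485 in mOSN, and Epha5 at 2574 in O/Tet3 and 1131 in mOSN. The call of Epha7 does depend on scaling: its log2 ratio was 0.88 after the median of all rows, 0.21, was subtracted and 0.85 after upper quartile scaling, both short of 2-fold. Gap43 and Dpysl3, the immature neuron markers that were at least 2-fold higher, had values of 34.8 and 8.22 in O/Tet3, against 6.41 and 3.23 in mOSN. Of the other immature neuron markers, Gng8 and Stmn2 had values of 1.60 and 39.3 in O/Tet3, against 0.327 and 27.7 in mOSN, and Tubb3 and Ncam1 had values of 13.7 and 51.7 in O/Tet3, against 23.6 and 82.7 in mOSN. The 6 markers thus did not share a direction, and their part in the Epha7 value was not tested.

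The other EphA receptors lay far below. Epha1, Epha2 and the kinase-inactive Epha10 had values between 0.139 and 0.290 in O/Tet3, against 0.245 to 0.364 in mOSN. Epha4 and Epha6 did not exceed 0.0131 in O/Tet3 and 0.0174 in mOSN. Epha3 was listed at 0 in O/Tet3 and at 0.0343 in mOSN, and Epha8 was listed at 0 in both. These low values show only that Epha5 and Epha7 made up nearly all of the EphA transcript in both libraries.

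Among the ephrin-As, the membrane-anchored ligands of these receptors, Efna3 had the lowest log2 ratio of the 10 compared genes. Its value was 8.63 in O/Tet3 and 26.1 in mOSN, 3.03-fold lower (log2 ratio −1.50), and its rank was 4296 in O/Tet3 and 1068 in mOSN. It was at least 2-fold lower under each scaling except on Omp, where its log2 ratio was −0.48. Efna5 had a value of 4.69 in O/Tet3 and 7.72 in mOSN, 1.64-fold lower (log2 ratio −0.62). The summed ephrin-A value was 14.0 in O/Tet3 and 34.6 in mOSN, 2.47-fold lower, next to the nearly equal EphA sums. Efna3 held 61.6% of the ephrin-A sum in O/Tet3 and 75.5% in mOSN. Epha5 and Efna5, the receptor and ligand named together above, kept nearly the same ratio to each other, 3.15 in O/Tet3 and 3.25 in mOSN.

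The remaining ephrin-As were below 1. Efna4 had a value of 0.683 in O/Tet3 and 0.145 in mOSN, Efna2 was listed at 0 in O/Tet3 with 0.635 in mOSN, and Efna1 was listed at 0 in both. In the RefSeq gene table (GRCm38.p6), Efna1, Efna3 and Efna4 follow each other on chromosome 3 with 0 protein-coding genes of that table between them. Of these neighbours only Efna3 was compared, and it was lower in O/Tet3. Efna4, below 1 in both libraries, had the larger value in O/Tet3, and Efna1 was at 0. Reads at the borders of adjacent genes were assigned by the authors' counting, and the sources used here do not give its strand setting.

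**Figure D2:**
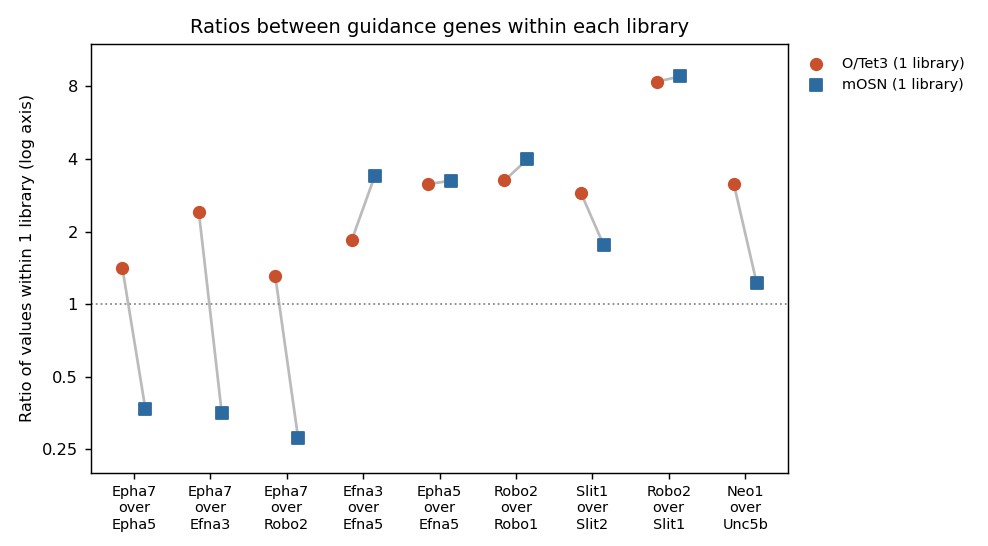
Ratio of one guidance gene's value to another's within a library (vertical log axis; O/Tet3 as circles at left of each pair, mOSN as squares at right, 1 library each). The ratios of Epha7 to Epha5, Efna3 and Robo2 lie above 1 in O/Tet3 and below 1 in mOSN, whereas those of Epha5 to Efna5 and Robo2 to Slit1 are nearly level.

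The ephrin-Bs and EphB receptors, transmembrane ligands and their receptors that signal in both directions, were all below a value of 1, so none was compared. Efnb1, Efnb2 and Efnb3 had values of 0.267, 0.616 and 0.834 in O/Tet3, against 0.196, 0.208 and 0.671 in mOSN, larger in O/Tet3 for each of the 3. Ephb2 had a value of 0.668 in O/Tet3 and 0.122 in mOSN, 5.49-fold higher. Ephb1 and Ephb3 were at 0.0300 and 0.0604 in O/Tet3, against 0.0472 and 0.105 in mOSN. Ephb4, known from blood vessel endothelium with its ligand ephrin-B2, was listed at 0 in O/Tet3 and at 0.0642 in mOSN, and Ephb6, which lacks kinase activity, was listed at 0 in both. Of 7 endothelial markers, 3 (Cdh5, Emcn and Cldn5) were listed at 0 in both libraries. The summed value of the 7 was 0.567 in O/Tet3 and 0.195 in mOSN, of which Pecam1 alone held 0.508 in O/Tet3 and 0.121 in mOSN.

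The Robo receptors, which mediate repulsion by Slits, held the highest value of all 41 genes in mOSN. Robo2 had a value of 15.9 in O/Tet3 and 33.3 in mOSN, 2.10-fold lower (log2 ratio −1.03), just past the 2-fold limit. Robo1 had a value of 4.87 in O/Tet3 and 8.35 in mOSN, 1.72-fold lower (log2 ratio −0.67). Both were lower in O/Tet3, and they are adjacent on chromosome 16 with 0 protein-coding genes between them in the RefSeq table. The ratio of Robo2 to Robo1 was 3.26 in O/Tet3 and 3.99 in mOSN. Set against Omp, which was itself 2.14-fold lower (139 in O/Tet3 and 298 in mOSN), Robo2 was at 11.4% of Omp in O/Tet3 and 11.2% in mOSN, while Epha7 was at 14.9% in O/Tet3 and 3.11% in mOSN. Whether Omp is a fit yardstick in mice that carry a driver named for it was not tested. Robo3, known from commissural axons, was listed at 0 in both, and Robo4, an endothelial member, was listed at 0 in O/Tet3 and at 0.00647 in mOSN.

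The Slits, secreted ligands of the Robos, were lower in value as well. Slit1 had a value of 1.89 in O/Tet3 and 3.78 in mOSN, 2.00-fold lower in value but short of 2-fold on the log2(value + 1) scale (log2 ratio −0.73). Slit2 had a value of 0.653 in O/Tet3 and 2.16 in mOSN, 3.31-fold lower (log2 ratio −0.93), the gene closest to the 2-fold limit from within. Slit2 passed that limit when ratios were centred (−1.14), under upper quartile scaling (−1.03) and with a pseudocount of 0.1 (−1.59). Slit3 was listed at 0 in both libraries. The ratio of Robo2 to Slit1, the receptor and repellent ligand of dorsal to ventral sorting, was 8.38 in O/Tet3 and 8.80 in mOSN. Both are values of sorted epithelial cells, and Slit1 in the bulb was not measured.

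Cytosines before G (CpG) are the usual site of the modification that Tet3 makes. Modification of promoter DNA was not analysed here, and its part in the values was not tested. The promoter windows of the genes past the 2-fold limit as deposited are given below. Each is the 250 bases before the start listed first for the gene in the RefSeq table (GRCm38.p6), 5′ to 3′ on the gene's strand, with CpG in capitals. The Epha7 window is chr4:28812881-28813130 on the plus strand, the Efna3 window chr3:89322940-89323189 on the minus strand and the Robo2 window chr16:75447294-75447543 on the minus strand.
Epha7: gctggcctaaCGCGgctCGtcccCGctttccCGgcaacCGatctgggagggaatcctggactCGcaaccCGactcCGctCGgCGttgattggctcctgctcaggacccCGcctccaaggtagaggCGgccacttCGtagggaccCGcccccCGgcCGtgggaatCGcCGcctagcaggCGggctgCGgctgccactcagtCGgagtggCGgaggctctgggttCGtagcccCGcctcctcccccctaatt
Efna3: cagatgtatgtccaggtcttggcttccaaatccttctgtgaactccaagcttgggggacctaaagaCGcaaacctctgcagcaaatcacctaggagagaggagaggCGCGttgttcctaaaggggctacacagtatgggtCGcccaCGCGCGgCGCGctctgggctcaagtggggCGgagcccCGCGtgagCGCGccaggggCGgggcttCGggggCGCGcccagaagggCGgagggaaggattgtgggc
Robo2: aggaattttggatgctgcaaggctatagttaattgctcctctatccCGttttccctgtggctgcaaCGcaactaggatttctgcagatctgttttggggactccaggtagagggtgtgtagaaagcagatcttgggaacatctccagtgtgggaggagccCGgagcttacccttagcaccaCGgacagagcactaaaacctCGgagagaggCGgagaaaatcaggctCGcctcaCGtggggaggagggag
The Epha7 window holds 25 CpG, the Efna3 window 19 and the Robo2 window 8. The table lists 1 further start for Epha7, whose window holds 23 CpG, 1 for Efna3, whose window holds 31, and 2 for Robo2, whose windows hold 4 and 14. The start in use in these cells is not given by the data.

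Over all the guidance genes with an entry, 36 of 41 with 41 windows, the median was 17 CpG per window, against 6 over all 32851 windows of the table. The windows of the table were not limited to protein-coding or compared genes, so these medians do not set like beside like. The 13 windows of compared genes ran from 4 to 45 CpG (median 23), and the 10 windows of genes listed at 0 in both libraries from 2 to 46 (median 21.5), so the ranges overlapped almost entirely. The motif CCCNNGGG, the palindromic core bound by Ebf factors, which regulate olfactory neuron genes, was searched on both strands. It was found in 9 of the 41 windows (22.0%), against 11.8% of all windows of the same length. One of the 9 was the window of the Robo2 start listed last. No other window of a compared gene held a match, those of Epha7 and Efna3 included. The other matches were in windows of Efna1, Efna2, Ephb2, Ntn4, Ntn5, Robo3, Slit3 and Unc5a, all below 1 in both libraries. The fixed letters of the motif are C and G only, and the part of base composition in these shares was not tested. A match describes letters only and not binding.

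Of the netrin receptors, 2 of 6 were compared, and both were within 2-fold. Neogenin (Neo1), a receptor of netrins and repulsive guidance molecules, had a value of 6.50 in O/Tet3 and 4.88 in mOSN (log2 ratio 0.35), the only compared gene besides Epha7 with a positive ratio. Unc5b, which mediates repulsion by netrin and is also known from endothelium, had a value of 2.06 in O/Tet3 and 3.99 in mOSN, 1.94-fold lower (log2 ratio −0.71). The ratio of Neo1 to Unc5b was 3.16 in O/Tet3 and 1.22 in mOSN. Dcc, the attractive netrin receptor of developing axons, had a value of 0.0107 in O/Tet3 and 0.0340 in mOSN. Unc5c was at 0.109 in O/Tet3 and 0.0354 in mOSN, Unc5d at 0.0364 in O/Tet3 and 0.0525 in mOSN, and Unc5a was listed at 0 in both. Neogenin therefore stood for nearly all of the Dcc and neogenin transcript, 99.8% in O/Tet3 and 99.3% in mOSN.

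The netrins themselves were near or at 0. Ntn1, the founding secreted netrin, had a value of 0.452 in O/Tet3 and 0.0300 in mOSN, 15.1-fold higher. Taking the 1.89-fold worth of a read into account, that is 7.96 reads in O/Tet3 for each read in mOSN, if both values rest on whole reads of the same transcript. Ntn3 and Ntn4 were listed at 0 in O/Tet3 and at 0.0442 and 0.102 in mOSN. Ntn5 and both netrin-Gs (Ntng1 and Ntng2), membrane-anchored relatives that do not bind the netrin receptors, were listed at 0 in both libraries.

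Among the 16 genes above 0 and below 1 in both libraries, 7 had the larger value in O/Tet3 and 9 in mOSN, while 54.6% of all such rows had the larger value in O/Tet3. 5 of the 16 were over 2.5-fold higher in O/Tet3 (Ntn1, Ephb2, Efna4, Unc5c and Efnb2, a limit set after their values were seen), against 24.8% of all such rows. In reads, Ephb2 had 2.90, Efna4 2.49, Unc5c 1.62 and Efnb2 1.57 reads in O/Tet3 for each in mOSN, on the same assumption. Efnb1 and Efnb3, also larger in value in O/Tet3, had 0.721 and 0.657, that is fewer reads than in mOSN. 6 genes were listed at 0 in O/Tet3 alone and 0 in mOSN alone. Over all 34617 rows too, fewer were above 0 in O/Tet3 (19433) than in mOSN (21218). The share of all rows listed at 0 in a single library was not counted, so the 6 are not read as a trait of these genes. A further 9 (22.0%) were listed at 0 in both, against 34.0% of all rows. A 0 in such a table can be a failed estimate.

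**Figure D3:**
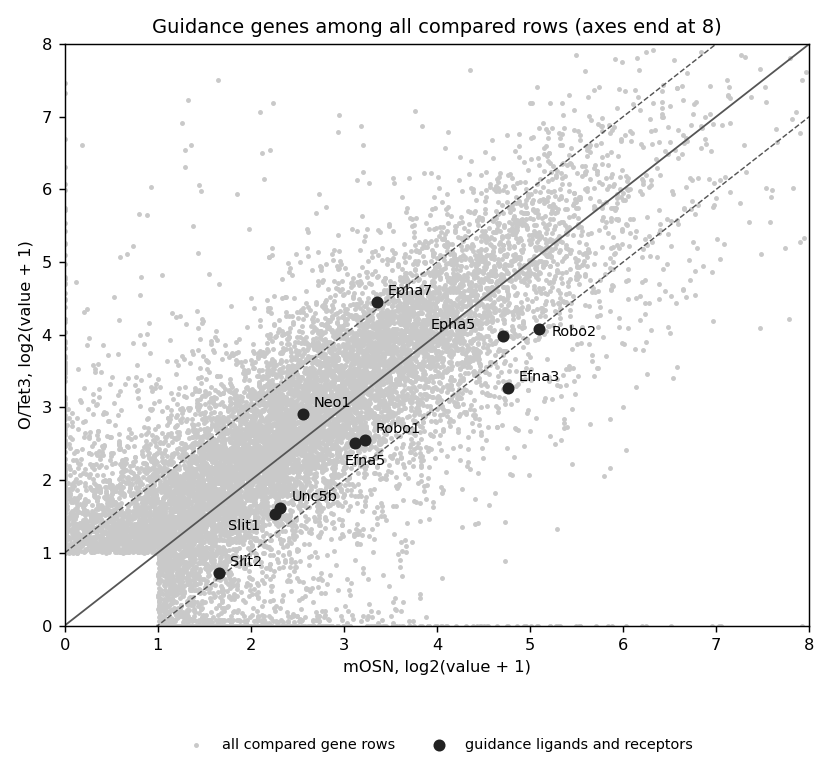
O/Tet3 against mOSN values on the log2(value + 1) scale for all compared gene rows (grey) and the 10 compared guidance genes (black), with the line of equality and dashed 2-fold limits. Epha7 lies just above the upper limit, Efna3 and Robo2 below the lower one, and the axes end at 8, which leaves out the highest rows.

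Proteins that carry the signal inside the cell, or bind the ligands and receptors from outside, were described from 3 lists of known partners, whose counts stand beside 16.5% higher and 12.0% lower among all compared rows. Of 26 compared Eph and ephrin partners, 1 was at least 2-fold higher and 2 lower (median log2 ratio −0.06). Rgs3, whose PDZ form binds ephrin-B tails, had a value of 8.42 in O/Tet3 and 30.6 in mOSN (log2 ratio −1.75). Vav2, a guanine nucleotide exchange factor recruited by Eph receptors, had a value of 3.68 in O/Tet3 and 11.4 in mOSN (log2 ratio −1.41). Tiam1, an exchange factor for Rac, had a value of 3.04 in O/Tet3 and 0.645 in mOSN (log2 ratio 1.30).

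Of 19 compared Slit and Robo partners, 0 were higher and 2 lower (median log2 ratio −0.29). Sdc3, a heparan sulfate proteoglycan of neurons, had a value of 5.07 in O/Tet3 and 36.1 in mOSN (log2 ratio −2.61). The kinase Pak1 had a value of 5.27 in O/Tet3 and 12.4 in mOSN (log2 ratio −1.09). Nck1, an adaptor between guidance receptors and actin regulators, was within 2-fold at 6.76 in O/Tet3 and 3.59 in mOSN (log2 ratio 0.76).

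Of 21 compared partners of netrin, Dcc, Unc5 and Neo1, 3 were higher and 4 lower (median log2 ratio −0.02). Maged1, which binds Unc5a, had a value of 40.6 in O/Tet3 and 6.63 in mOSN (log2 ratio 2.45). Flrt1, of a family of transmembrane Unc5 ligands, had a value of 8.13 in O/Tet3 and 43.6 in mOSN (log2 ratio −2.29). The ubiquitin ligase Siah2, of the family that targets Dcc, had a value of 4.43 in O/Tet3 and 17.0 in mOSN (log2 ratio −1.73). Counting each gene once, 59 of 84 partners were compared, with 4 higher (6.78%) and 7 lower (11.9%), and their median log2 ratio was −0.04. The share of lower partners was near the 12.0% of all compared rows, and that of higher partners below the 16.5%. The partners' median thus lay between the −0.72 of the 10 ligands and receptors and the 0.21 of all compared rows.

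**Figure D4:**
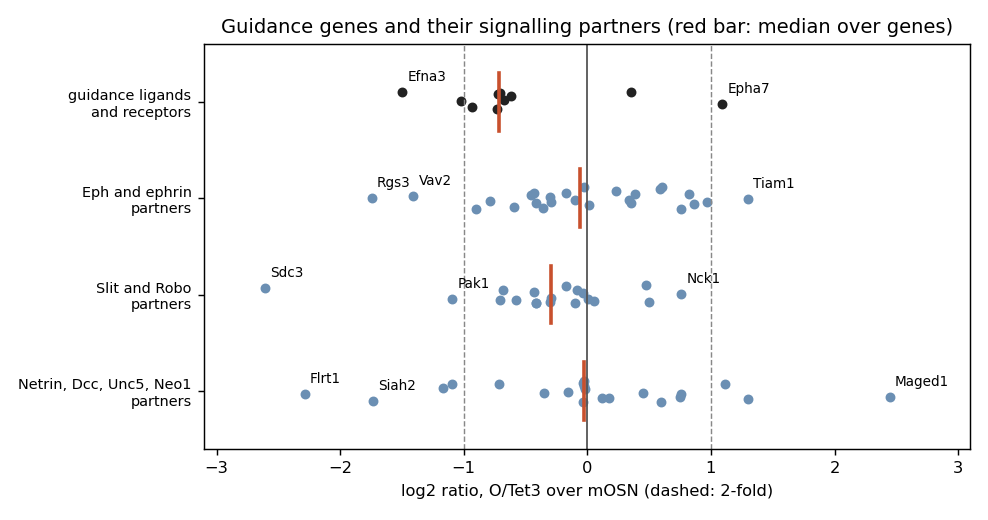
log2(value + 1) ratios of O/Tet3 over mOSN for the 10 compared guidance genes and for the compared members of the 3 partner lists (1 point per gene, random vertical spread; red bars are medians over genes, dashed lines the 2-fold limits; named points are Epha7, Efna3 and the 3 largest ratios in size of each partner list). Medians are −0.72 for the guidance genes and −0.06, −0.29 and −0.02 for the partner lists, and Maged1, Flrt1 and Sdc3 lie farthest out.

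How far each gene's position rests on scaling was followed for the 10 compared genes. Epha7 and Neo1 had positive and Efna3 and Slit2 negative ratios under each of the scalings run. Efna5, Epha5, Robo1, Robo2, Slit1 and Unc5b were negative under each scaling except on Omp, where they ran from 0.03 for Robo2 to 0.34 for Efna5. The order from Epha7 to Efna3 was the same at both ends in all of them.

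**Figure D5:**
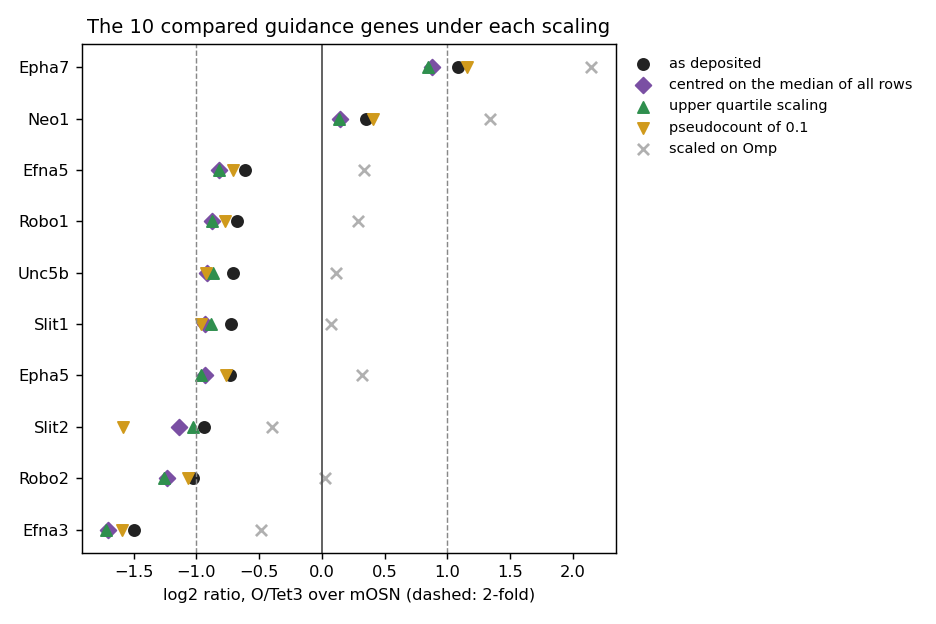
log2 ratio of O/Tet3 over mOSN (horizontal axis, dashed lines at 2-fold) of the 10 compared guidance genes as deposited, centred on the median of all rows, after upper quartile scaling, with a pseudocount of 0.1 and scaled on Omp. Epha7 is at the right end and Efna3 at the left end under each, and scaling on Omp moves every gene to the right.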

How the data were processed

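Total RNA of sorted cells was depleted of ribosomal RNA in 2 rounds with RiboMinus, made into ScriptSeq libraries and amplified for 16 cycles, per the labels' protocols. Bowtie, Bowtie2, Cuffdiff and mm9 are named without versions in the submitters' processing notes; annotation and strand setting are not given in the sources used here. The deposited log2 columns hold log2(value + 1) per library, and the authors' log2 ratio column equals O/Tet3 minus mOSN within 8.0e-14. With the log undone, 99.3% of O/Tet3 and 99.4% of mOSN values above 0.01 had no more than 6 significant digits, the form in which Cuffdiff prints FPKM. Columns were assigned to samples by the genotype in their names. The worth of 1 read was taken from the most frequent log2 ratio (0.92) of 1943 rows between 0 and 0.2 in both libraries. The 6 largest rows held 96.9% of the summed values in O/Tet3 and 90.05% in mOSN.

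The pseudocount was 1, the minimum value 1 and the limit 2-fold. Library depth is unknown, so no counting interval is given. The code for ratios and calls was tested on simulated data with known folds, which checks the code and not the libraries. All genes of the symbol rule were named, with the 3 partners per list of largest ratio in size. Members and lists were chosen with earlier results of these data known. Summed marker values were 8.05 in O/Tet3 and 10.6 in mOSN for sustentacular cells, 0.125 in O/Tet3 and 0.404 in mOSN for basal and progenitor cells, 1.57 in O/Tet3 and 7.73 in mOSN for ensheathing glia, 0.406 in O/Tet3 and 0.729 in mOSN for mesenchyme, and 41.6 in O/Tet3 and 63.5 in mOSN for blood. Python 3.11.15, pandas 2.3.3 and numpy 2.4.6 were used.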

Additional observations from a re-analysis of the deposited data

How the results depend on the processing

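The number of guidance genes at least 2-fold higher in O/Tet3, 1 as reported, was 0 once ratios were centred on the all-row median, after upper quartile scaling and at a 3-fold limit, and 2 when values were scaled on Omp. The number lower, 2 as reported, was 3 with a pseudocount of 0.1, when centred and after upper quartile scaling. It was 0 when scaled on Omp and 0 at a 3-fold limit, which like the 2-fold limit applies to value + 1. The median log2 ratio of −0.72 was −0.0093 with no minimum value and 0.20 when scaled on Omp. Scaling on Omp, chosen after seeing the data, adds 1.10 to log2 ratios of high values by construction; under it the Robo2 log2 ratio of −1.03 was 0.025 and the Slit and Robo partner median of −0.29 was 0.71. A median over rows with no minimum value includes rows listed at 0, whose ratio is 0. For these 3 results, 12 of 20 alternative values kept their direction and stayed within 1.5 times the count or 0.25 of the median. Of all 12943 compared rows, 2135 (16.5%) were higher and 1552 (12.0%) lower as reported. With a minimum of 5, 7149 rows were compared, of which 1401 (19.6%) were higher and 793 (11.1%) lower. For the 12943 rows, higher and lower counts were 1464 (11.3%) and 1953 (15.1%) centred, and 1487 (11.5%) and 1856 (14.3%) with upper quartile scaling. They were 745 (5.76%) and 673 (5.2%) at 3-fold, and 7407 (57.2%) and 903 (6.98%) scaled on Omp. Depth limits the genes below 1, where a value in O/Tet3 rests on fewer reads. No paired analysis was possible because there was a single library of each genotype.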
